A study of Carica papaya with 12 samples.

Results

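The sucrose synthase genes of papaya (Carica papaya) were described across 12 RNA-Seq libraries of fruit flesh. The members were the 4 Trinity genes annotated as sucrose synthase, with every one of their 41 assembled isoforms, out of 75259 Trinity genes and 180368 transcripts in the deposited tables. They are called here by the symbols of the matching loci in the RefSeq annotation: SUS2 (TRINITY_DN775_c0_g1, 9 isoforms), SUS3 (TRINITY_DN775_c0_g2, 14 isoforms), SUS4 (TRINITY_DN775_c0_g3, 2 isoforms) and SUS5 (TRINITY_DN2092_c0_g1, 16 isoforms). All 4 matched, to 4 different chromosomes, and they are the 4 genes with a SUS symbol in that annotation. SUS4 is the gene that the study measured by RT-qPCR as cpSUS. The study compared yellow-fleshed ‘1B’, a variety of bitter flavour and musty aroma, with red-fleshed ‘RB1’, which is sweet with a floral aroma, each at a ripe and an unripe stage. The ripe fruits were partly coloured, at stage 3 of the study's ripening index, and the unripe fruits mature green, at stage 1. Each of the 4 groups had 3 fruits from 1 plantation and 1 harvest month, and every fruit had received the fungicide Sportak and was kept warm for 1 day before it was cooled and cut. With 1 harvest, the p-values below measure the spread between those fruits of that harvest that entered each test.

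Sucrose synthase catalyses a reversible reaction between sucrose and UDP on one side and UDP-glucose and fructose on the other. In sink tissues such as fruits it is best known for the cleavage direction, which feeds UDP-glucose to cell wall and starch synthesis, while invertases hydrolyse sucrose to glucose and fructose without forming UDP-glucose. Flowering plants carry a small family of sucrose synthase genes whose members differ in tissue and stage of expression, so a total over the family can hide shifts between its members.

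The shallowest library, ripe ‘RB1’ replicate 2, had a total count of 10949060, and the deepest, ripe ‘1B’ replicate 2, one of 60099964. ‘RB1’ ripe replicate 3 stood apart: over 32870 genes its log2 CPM (TMM-scaled counts per 1000000) correlated at r = 0.980 to 0.985 with the 3 unripe ‘RB1’ libraries and at 0.940 to 0.943 with the other 2 ripe ‘RB1’ libraries. The study describes 1 ripe ‘RB1’ sample as an outlier, and this library was left out of the tests. The p-values of comparisons with ripe ‘RB1’ thus do not hold the spread between this fruit and the other 2 of its group. Values of ‘RB1’ ripe replicate 3 itself, or the results with it kept, are given where they differ. The shares of all genes or transcripts called are those with it left out. Counts of members called with it kept have no such share beside them. Scaling mattered too. TMM factors were 1.32 to 1.47 in ripe ‘1B’, 0.658 to 0.675 in unripe ‘1B’ and 0.929 to 1.18 in ‘RB1’, and the 10 most abundant transcripts held 25.3% to 44.6% of a library's counts. SUS2, SUS3 and SUS4 belong to 1 cluster of the assembly, so reads could have been shared between them, and values for the 3 are uncertain to that extent. In bulk flesh, fewer cells of a type and less RNA per cell cannot be told apart. The RNA quality scores reported by the study were higher in each unripe ‘1B’ sample than in any sample of the other groups. RNA quality thus differed along with group in every comparison that used unripe ‘1B’, the interaction of variety and stage included. Its effect on the values was not tested.

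In ripe fruit, SUS2 was higher and SUS4 lower in ‘1B’ than in ‘RB1’. SUS2 was measured at 4.74, 4.73 and 7.04 CPM in the 3 ripe ‘1B’ libraries, against 0.845 and 0.621 CPM in ripe ‘RB1’ replicates 1 and 2. The groups did not overlap, and the difference was 6.93-fold (log2 fold change 2.79 ± 0.26 SE, adjusted p = 3.65e-11, edgeR quasi-likelihood test). SUS4 was measured at 48.9, 50.2 and 39.8 CPM in ripe ‘1B’, against 180.0 and 154 CPM in ripe ‘RB1’. Both ‘RB1’ libraries were above all 3 of ‘1B’, and SUS4 was 3.60-fold lower in ‘1B’ (log2 fold change -1.85 ± 0.16, adjusted p = 1.21e-11). SUS5, a weakly expressed member, had 2.88, 2.38 and 2.28 CPM in ripe ‘1B’, against 6.42 and 6.83 CPM in ripe ‘RB1’. Its log2 fold change of -1.39 ± 0.18 had an adjusted p of 4.72e-08 and stayed below the fold threshold of 1.5 on the log2 scale, which is 2.83-fold. SUS3, the main member in ‘1B’, had 111, 115 and 114 CPM in ripe ‘1B’, against 74.1 and 67.8 CPM in ripe ‘RB1’, a log2 fold change of 0.68 ± 0.16 (adjusted p = 7.15e-04).

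Of the 4 members, 2 passed the adjusted p of 0.05 and the fold threshold between ripe ‘1B’ and ripe ‘RB1’, where 29.5% of all tested genes did. By the adjusted p alone 4 of 4 passed, against 55.4% of all genes. The median of the 4 log2 fold changes was -0.35, beside 0.31 over all genes tested. Each of the 4 genes has a transcript on the study's list of differing transcripts, which was drawn up from these ripe samples, so the ripe comparison is not independent evidence for them. ‘RB1’ ripe replicate 3 had 17.1 CPM of SUS2 and 126 CPM of SUS3, each above every other library, and 41.4 CPM of SUS4, just under the lowest unripe library, and 2.81 CPM of SUS5, within the range of the unripe libraries. With it kept, no member was called in ripe fruit: the log2 fold changes were -0.22 for SUS2 (adjusted p = 0.893), 0.32 for SUS3 (0.381), -1.46 for SUS4 (0.0588) and -1.10 for SUS5 (0.0559).

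**Figure D1:**
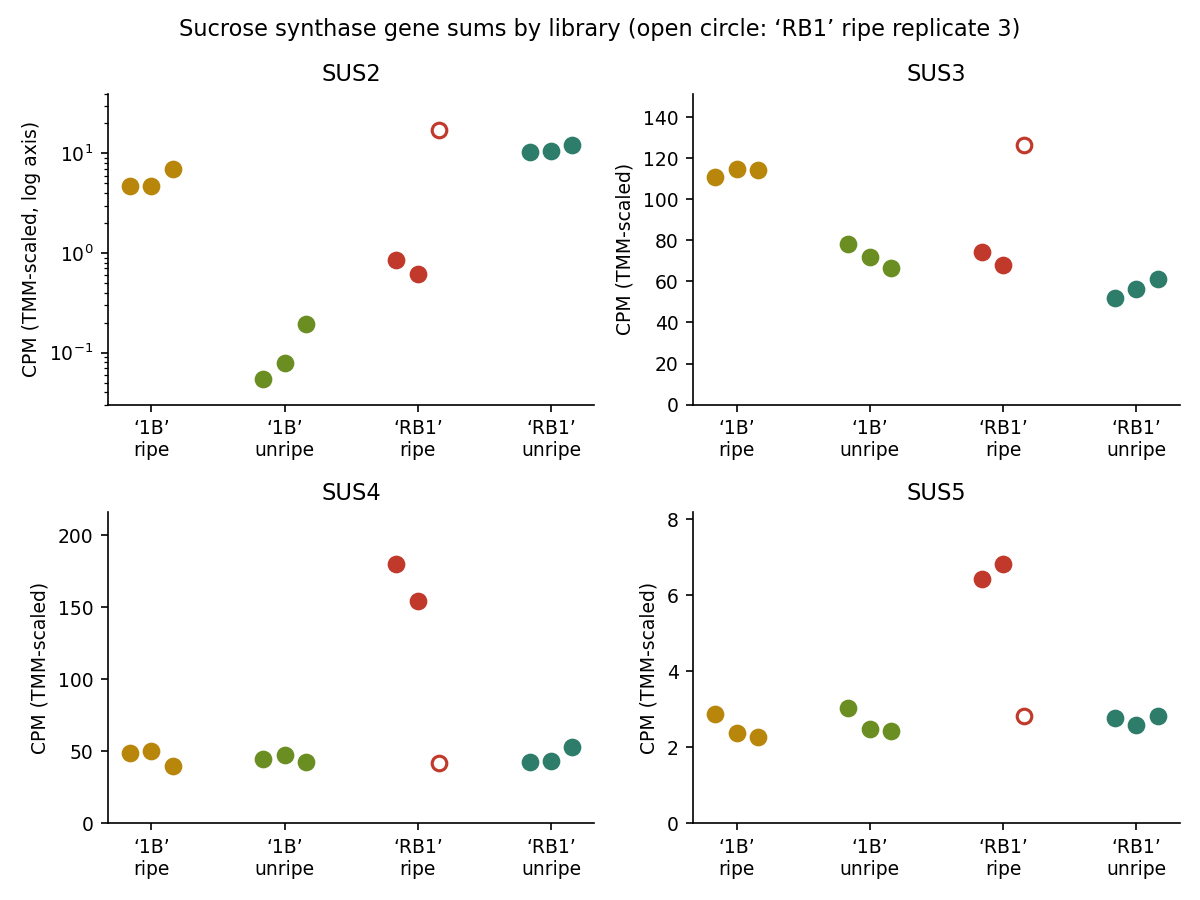
Gene sums of the 4 sucrose synthase genes in each library, in TMM-scaled CPM (log axis for SUS2 and linear axes from 0 for the others), by variety and stage. Each point is 1 fruit and the open circle is ‘RB1’ ripe replicate 3. SUS2 sits below 0.2 CPM in unripe ‘1B’ and above 10 CPM in unripe ‘RB1’, and SUS4 stands at 154 CPM and above only in ripe ‘RB1’ replicates 1 and 2.

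In unripe fruit, the varieties differed most in SUS2. SUS2 was close to the detection limit in unripe ‘1B’, with 2, 3 and 7 counts or 0.0541, 0.0786 and 0.194 CPM, against 10.4, 10.5 and 12.2 CPM in unripe ‘RB1’ (206, 584 and 660 counts). The gap was 104-fold (log2 fold change -6.69 ± 0.22, adjusted p = 3.59e-16), lower in ‘1B’, which is the opposite direction to ripe fruit, and it was 162-fold without ‘1B’ unripe replicate 3, the library with 7 counts. SUS3 was measured at 78.1, 71.7 and 66.7 CPM in unripe ‘1B’, against 51.7, 56.4 and 61.0 CPM in unripe ‘RB1’. Its groups did not overlap, but the log2 fold change was only 0.30 ± 0.08 (adjusted p = 0.00198), and it was -0.21 with library size only and 0.10 (adjusted p = 0.213) with TMM factors from genes of at least 20 CPM. SUS4 was measured at 44.6, 47.2 and 42.7 CPM in unripe ‘1B’, against 42.2, 43.0 and 52.9 CPM in unripe ‘RB1’. The overlapping SUS4 groups differed by -0.10 on the log2 scale, with a 95% interval of -0.26 to 0.06 (adjusted p = 0.333). SUS5 was measured at 3.03, 2.49 and 2.42 CPM in unripe ‘1B’, against 2.78, 2.57 and 2.83 CPM in unripe ‘RB1’, a log2 difference of -0.09 with an interval of -0.39 to 0.21 (adjusted p = 0.630). Both depended on the scaling: with library size only SUS4 was at -0.60 (adjusted p = 5.30e-07) and SUS5 at -0.60 (adjusted p = 0.00191), and with TMM factors from genes of at least 20 CPM SUS4 was at -0.29 (adjusted p = 0.00372). Thus 1 member passed both thresholds, where 15.1% of all genes did, and 2 passed the adjusted p alone, where 57.1% did. The median of the 4 was -0.09, beside -0.07 over all genes.

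Between the stages, SUS2 went in opposite directions in the 2 varieties. In ‘1B’ it was 49.1-fold higher in ripe than in unripe fruit (log2 fold change 5.62 ± 0.32, adjusted p = 7.20e-10), or 77.3-fold without ‘1B’ unripe replicate 3, and in ‘RB1’ it was 14.4-fold lower in ripe fruit (-3.84 ± 0.19, adjusted p = 8.20e-15). SUS4 differed by 0.02 on the log2 scale between the stages of ‘1B’, with a 95% interval of -0.16 to 0.21 (adjusted p = 0.840), and rose with ripening in ‘RB1’, by 3.57-fold (log2 fold change 1.83 ± 0.10, adjusted p = 1.74e-13). SUS5 was at -0.10 in ‘1B’, with an interval of -0.39 to 0.20 (adjusted p = 0.583), and at 1.24 ± 0.15 in ‘RB1’ (adjusted p = 1.95e-07, below the fold threshold). SUS3 had small positive log2 fold changes in both varieties, 0.63 ± 0.08 in ‘1B’ (adjusted p = 7.90e-06) and 0.31 ± 0.10 in ‘RB1’ (adjusted p = 0.00948). The ‘RB1’ value was 0.09 (adjusted p = 0.347) with TMM factors from genes of at least 20 CPM, and without ripe replicate 1 or unripe replicate 1 or 2 its adjusted p was 0.0664, 0.0859 and 0.0620.

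In ‘1B’ 1 member passed both thresholds between the stages (25.8% of all genes) and 2 the adjusted p alone (66.9%). In ‘RB1’ 2 members passed both (19.3%) and 4 the adjusted p alone (51.8%). The medians of the 4 were 0.32 in ‘1B’ and 0.78 in ‘RB1’, beside 0.22 and -0.08 over all genes. With ‘RB1’ ripe replicate 3 kept, no member was called between the stages of ‘RB1’, a count without the share of all genes beside it. The log2 fold changes were then -0.79 for SUS2 (adjusted p = 0.695), 0.67 for SUS3 (0.179), 1.45 for SUS4 (0.149) and 0.97 for SUS5 (0.172).

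The interaction of variety and stage, fitted on 11 libraries, tested directly whether the ripe minus unripe difference was unlike in ‘1B’ and ‘RB1’. For SUS2 the difference of the differences, ‘1B’ minus ‘RB1’, was 9.48 ± 0.37 on the log2 scale (adjusted p = 4.50e-20), and 10.16 without ‘1B’ unripe replicate 3. For SUS4 it was -1.77 ± 0.17 (adjusted p = 9.13e-11). For SUS5 it was -1.30 ± 0.22 (adjusted p = 8.49e-06) and for SUS3 0.36 ± 0.15 (adjusted p = 0.0455), both below the fold threshold. The SUS3 value was not stable, with an adjusted p of 0.156 under RLE size factors and 0.136 with DESeq2. Thus 2 members passed both thresholds (33.2% of all genes) and 4 the adjusted p alone (50.2%). The median of the 4 was -0.47, beside 0.47 over all genes. With ‘RB1’ ripe replicate 3 kept, SUS2 was still called, at 6.42 (adjusted p = 0.00469), while SUS4 was at -1.40 (adjusted p = 0.0535), SUS5 at -1.03 (0.0608) and SUS3 at -0.02 (0.978).

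**Figure D2:**
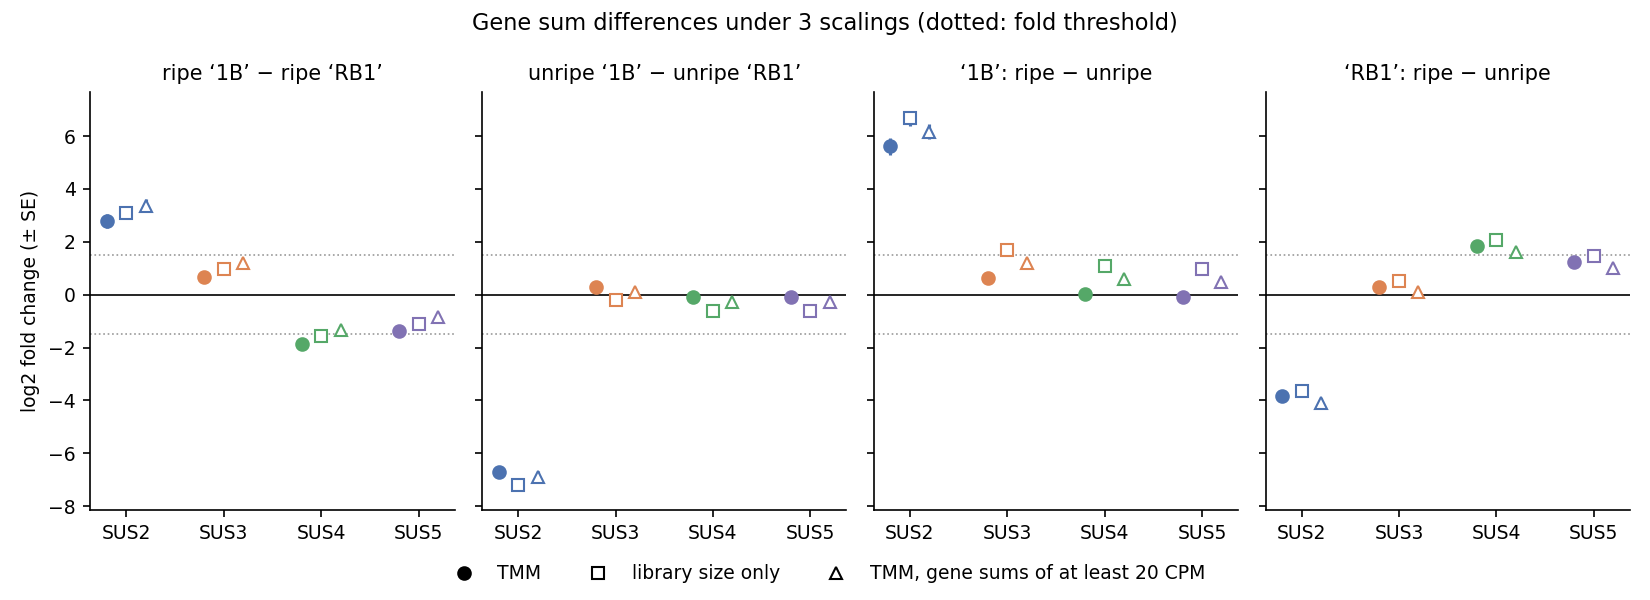
Log2 fold changes of the 4 gene sums (vertical axis, bars ± 1 SE, mostly smaller than the symbols) in the 4 comparisons, each under 3 scalings of the libraries. The SUS2 and SUS3 points keep their side of 0 in the comparisons other than unripe SUS3, while SUS4 and SUS5 within ‘1B’ move from near 0 under TMM to 1.10 and 0.97 under library size only.

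The size of the ripe minus unripe differences in ‘1B’ depended on the scaling. With library size only, the median of all genes there was 1.28 in place of 0.22, and the 4 members stood at 6.67 for SUS2, 1.70 for SUS3, 1.10 for SUS4 and 0.97 for SUS5. With TMM factors from genes of at least 20 CPM the median was 0.78, and the members stood at 6.17, 1.19, 0.59 and 0.47. Of the genes called within ‘1B’, 60.6% were higher in ripe fruit under TMM, 92.1% under library size only and 83.0% under TMM from genes of at least 20 CPM. In ripe fruit the same 3 percentages were 60.7%, 73.6% and 81.4% higher in ‘1B’, and SUS4 was at -1.85, -1.57 and -1.32, the last of them below the fold threshold. In unripe fruit they were 51.9%, 23.4% and 39.9%, and between the stages of ‘RB1’ 53.1%, 65.1% and 39.7%. For the interaction 60.8%, 84.4% and 83.4% of the calls were positive, and SUS4 was at -1.77, -0.96 and -1.03, so that its interaction passed the fold threshold under TMM alone of the 3. With limma on log2 TPM plus 1, SUS2 was at 1.28 and SUS4 at -1.23 in ripe fruit and SUS2 at 1.47 between the stages of ‘1B’, all below the fold threshold.

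Relations within a library do not depend on the scaling between libraries. By TPM, which corrects for transcript length, SUS3 held 68.8 ± 1.43% of the summed level of the 4 genes in ripe ‘1B’ and 62.0 ± 1.07% in unripe ‘1B’ (SD, n = 3 each). Its part was 30.6 ± 0.594% in ripe ‘RB1’ (n = 2) and 49.9 ± 1.32% in unripe ‘RB1’ (n = 3). SUS4 held 24.3 ± 2.54% in ripe ‘1B’ and 33.3 ± 1.37% in unripe ‘1B’ (n = 3 each), and 63.5 ± 1.38% in ripe ‘RB1’ (n = 2) and 36.1 ± 1.32% in unripe ‘RB1’ (n = 3). SUS3 was thus the largest member in every group but ripe ‘RB1’, where SUS4 was. SUS2 held 3.22 ± 0.851% in ripe ‘1B’, 0.0971 ± 0.0702% in unripe ‘1B’, 0.304 ± 0.0614% in ripe ‘RB1’ and 9.59 ± 0.279% in unripe ‘RB1’. In ‘RB1’ ripe replicate 3 it held 8.97%, close to unripe ‘RB1’. SUS5 held between 3.68% and 5.65% in the 4 groups. Sums over the 4 genes, unlike these shares, do depend on the scaling between libraries. The summed TMM-scaled TPM was 57.7 ± 1.85 in ripe ‘1B’ and 23.6 ± 0.788 in unripe ‘1B’, and 53.6 ± 2.46 in ripe ‘RB1’ and 29.2 ± 1.98 in unripe ‘RB1’. Ripe fruit of both varieties thus had a higher summed TPM than unripe fruit, with no overlap, and in ripe ‘RB1’ most of it was SUS4. On the CPM scale the sums were 168 ± 4.19 in ripe ‘1B’ and 120 ± 7.06 in unripe ‘1B’, which is a smaller difference, and 246 ± 22.4 in ripe ‘RB1’ (n = 2) and 116 ± 11.4 in unripe ‘RB1’. The order of the ripe varieties thus turned with the scale, ‘1B’ being above ‘RB1’ by TPM and below it by CPM. With library size only, the CPM sums were 224, 252 and 216 in ripe ‘1B’ and 83.5, 82.0 and 73.6 in unripe ‘1B’. They were then 285 and 270 in ripe ‘RB1’ replicates 1 and 2 and 110, 114 and 120 in unripe ‘RB1’.

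**Figure D3:**
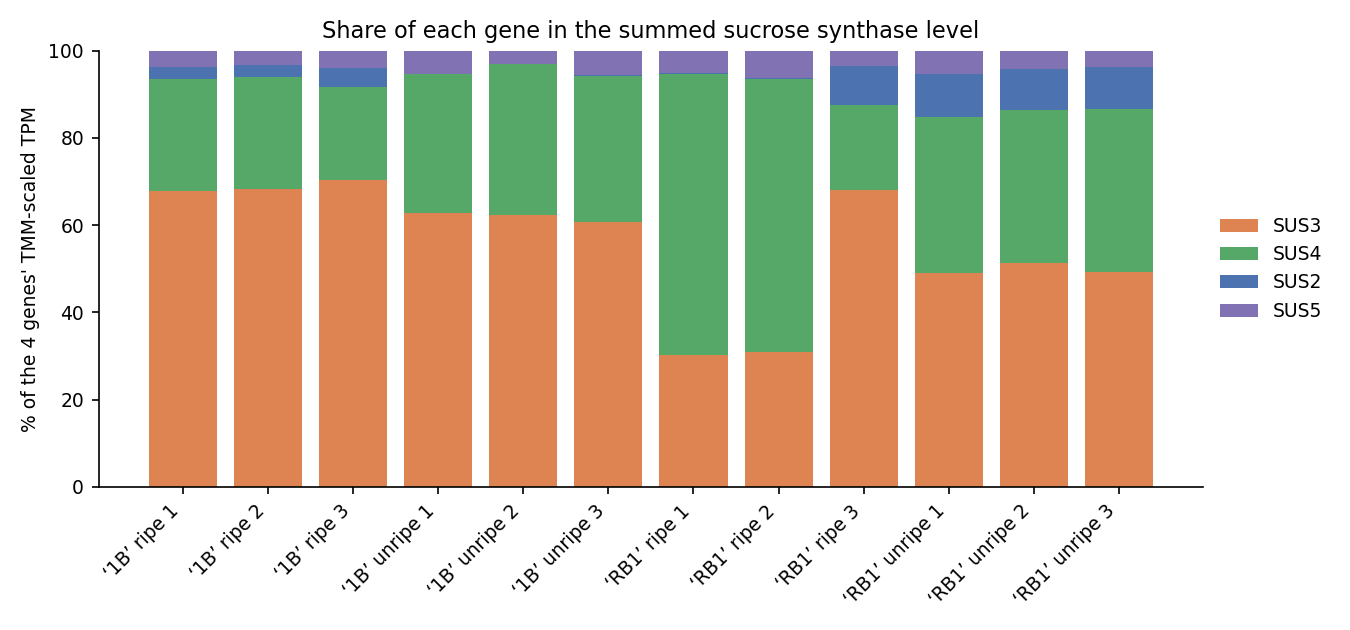
Share of each gene in the summed TMM-scaled TPM of the 4 sucrose synthase genes (vertical axis, percent), 1 bar per library. SUS3 takes more than 60% in all ‘1B’ libraries, SUS4 more than 60% in ripe ‘RB1’ replicates 1 and 2, and ‘RB1’ ripe replicate 3 has 68.1% SUS3 and 19.5% SUS4.

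The ratio of SUS4 to SUS3 counts put this shift in 1 number per library. It was 0.441, 0.438 and 0.348 in ripe ‘1B’, against 2.43 and 2.28 in ripe ‘RB1’ replicates 1 and 2. It was 0.571, 0.659 and 0.640 in unripe ‘1B’, against 0.815, 0.762 and 0.868 in unripe ‘RB1’. On the log2 scale the difference of ‘1B’ minus ‘RB1’ was -2.53 in ripe and -0.39 in unripe fruit, and that of ripe minus unripe fruit was -0.61 in ‘1B’ and 1.53 in ‘RB1’. The groups did not overlap in any of the 4 comparisons. The exact two-sided permutation p was 0.2 with 3 against 2 libraries and 0.1 with 3 against 3, in each case the smallest that the design allows, and 0.2 after adjustment over the 4. In ‘RB1’ ripe replicate 3 the ratio was 0.328, the lowest of the 12 libraries. With it kept, the groups overlapped and the differences were -1.59 in ripe fruit and 0.58 between the stages of ‘RB1’ (exact p = 0.4 each). From TPM the ratio was below 0.8 in all ‘1B’ libraries, in unripe ‘RB1’ and in ‘RB1’ ripe replicate 3, against 2.14 and 2.02 in ripe ‘RB1’ replicates 1 and 2, so that only there SUS4 exceeded SUS3 per length.

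**Figure D4:**
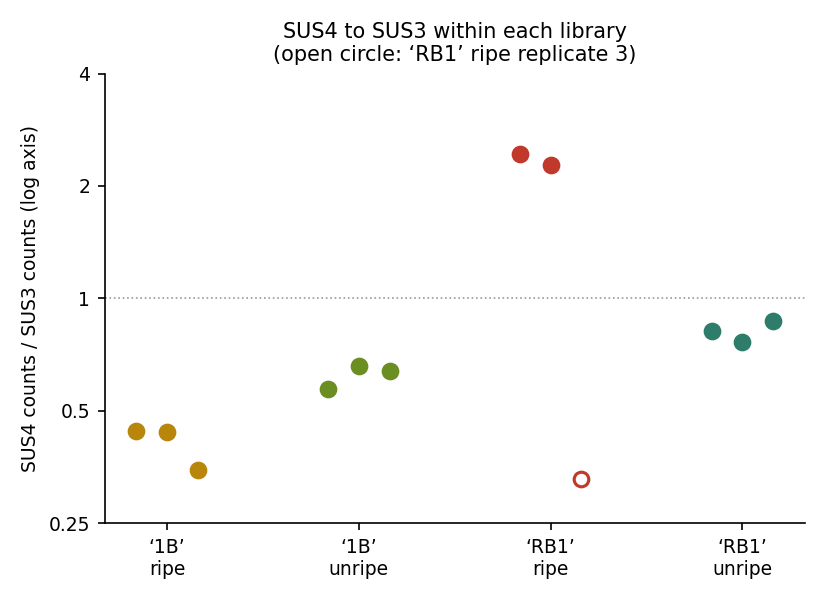
Ratio of SUS4 to SUS3 counts within each library (vertical log axis, dotted line at 1), by variety and stage, 1 point per fruit with ‘RB1’ ripe replicate 3 open. The ratio is above 2 in ripe ‘RB1’ replicates 1 and 2 and below 1 in the other 10 libraries.

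Of the 41 isoforms, 36 had counts in at least 1 library and 5 had none (4 of SUS3 and 1 of SUS5). An isoform here is a path of the assembly and need not be a splice variant. It can also be an allele, since both varieties went into 1 assembly. The sequences of the isoforms were not used here. Isoforms with a group mean of at least 1 CPM were 8 of SUS3, 3 of SUS2, 1 of SUS4 and 5 of SUS5. The 4 genes differed in how their counts were divided. SUS4 was nearly all isoform i2, with at least 98.4% of its counts in every library, and SUS3 was mainly i12. SUS2 was led by i1 where the gene was well covered, and by counts SUS5 had no steady main isoform.

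Among the 4 members, only SUS3 had isoforms found in every library of 1 variety and in none of the other. SUS5 had 4 isoforms with counts in ‘1B’ alone and 2 in ‘RB1’ alone, and SUS2 had 3 in ‘RB1’ alone. Those isoforms had counts in 1 to 3 libraries each. The low counts of SUS2 and SUS5 limit this comparison between members. Isoform i12 held 92.6%, 91.6% and 93.9% of the SUS3 counts in ripe ‘1B’ and 94.6%, 96.1% and 93.8% in unripe ‘1B’. It held 75.98% and 85.1% in ripe ‘RB1’ replicates 1 and 2 and 75.8%, 69.4% and 74.5% in unripe ‘RB1’. The rest of SUS3 was divided differently in each variety. Isoforms i6 and i7 had counts in all 6 ‘1B’ libraries and in none of ‘RB1’, and made up 4.70%, 5.28% and 4.27% in ripe ‘1B’ and 4.50%, 1.28% and 1.62% in unripe ‘1B’. Isoforms i2 and i8 had counts in all 6 ‘RB1’ libraries and in none of ‘1B’, and made up 17.6% and 9.16% of SUS3 in ripe ‘RB1’ replicates 1 and 2, and 16.4%, 22.3% and 18.2% in unripe ‘RB1’. ‘RB1’ ripe replicate 3 followed its label here, with 13.6% of SUS3 in i2 and i8 and no count of i6 or i7. Isoforms i4 and i11 were found in all 6 ‘RB1’ libraries and each in 1 of the 6 ‘1B’ libraries, i4 with 22 counts in ripe replicate 3 and i11 with 39 counts in unripe replicate 3. Isoform i13 was found in all 12 libraries. Transcripts outside the 4 genes with counts in 1 variety alone were not counted. The division is thus not shown to be particular to SUS3 among all genes.

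**Figure D5:**
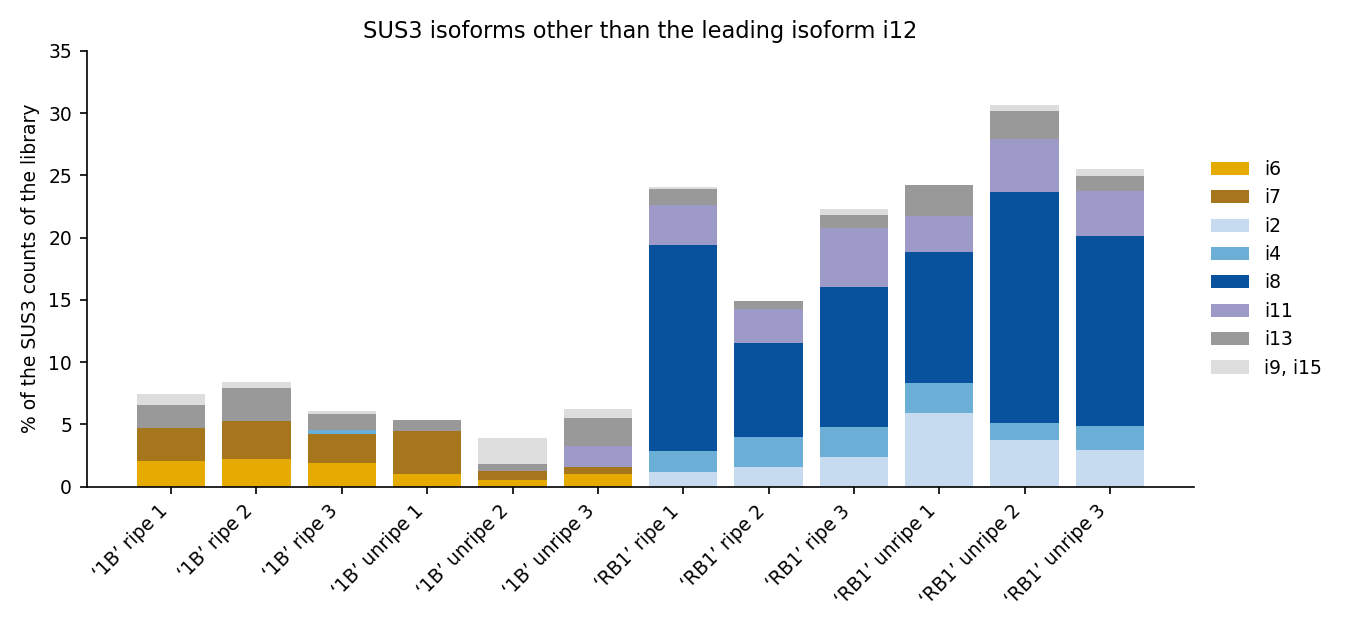
SUS3 isoforms other than i12, as a share of all SUS3 counts of the library (vertical axis, percent), 1 bar per library. Isoforms i6 and i7 appear only in the 6 ‘1B’ bars and i2 and i8 only in the 6 ‘RB1’ bars, ripe replicate 3 included.

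In the test of isoform usage, which asks whether an isoform's fold change departs from that of its gene, SUS3 was called between the varieties in ripe fruit (adjusted p = 3.74e-07) and in unripe fruit (adjusted p = 5.72e-07). It was the only 1 of the 4 members called, where 17.7% of the genes tested were in ripe and 18.1% in unripe fruit. Between ripe and unripe fruit no member was called in ‘1B’ (16.9% of genes) or in ‘RB1’ (3.6%). By edgeR's diffSpliceDGE 0 members had an unadjusted p under 0.05 there, and the smallest was 0.204 in ‘1B’ and 0.152 in ‘RB1’. The SUS3 isoforms behind the calls were i2, i4, i6, i7 and i8 at both stages and i11 in ripe fruit.

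As single transcripts, 8 of the 21 tested isoforms of the 4 genes passed both thresholds between ripe ‘1B’ and ripe ‘RB1’, where 16.3% of all transcripts did. Of the 8, 5 are on the study's list, which was drawn from the same samples. The count rests on single libraries, since 0 isoforms were called without ‘1B’ ripe replicate 1, and SUS3 i8 was not called without ‘RB1’ ripe replicate 1 or 2 either (adjusted p = 0.0630 and 0.0538). Where an isoform was at 0 in 1 group, its difference is given as a lower bound against 3 counts over that group. In ripe ‘1B’, SUS3 i7 was at least 63.5-fold and i6 at least 48.9-fold higher than in ripe ‘RB1’, while i8 was at least 691-fold, i11 at least 171-fold and i2 at least 77.8-fold lower. SUS2 i16 was at least 18.1-fold higher and SUS5 i38 at least 44.1-fold lower in ripe ‘1B’ than in ‘RB1’ replicates 1 and 2. Both rest on leaving out ‘RB1’ ripe replicate 3, which had 88 counts of SUS2 i16, or 1.51 CPM against at most 0.976 CPM in ripe ‘1B’, and no count of SUS5 i38. With it kept, 5 isoforms were called, SUS3 i2, i6, i7, i8 and i11, and SUS4 i2 had an adjusted p of 0.187. SUS4 i2, present in both, had a log2 fold change of -1.73 ± 0.19 (adjusted p = 0.0128). The main isoform SUS3 i12 was at 1.01 ± 0.11 (adjusted p = 0.0129), below the fold threshold. In unripe fruit 7 of 16 isoforms passed (12.8% of all transcripts). SUS3 i8 was then at least 312-fold, i2 at least 85.6-fold and i4 at least 39.3-fold lower in ‘1B’, and i7 at least 52.8-fold and i6 at least 26.5-fold higher. SUS3 i7 had 102, 20 and 14 counts in the 3 unripe ‘1B’ libraries, so its bound rests mainly on replicate 1, without which it was not called (adjusted p = 0.0529). SUS2 i1 was at -7.68 ± 1.19 (adjusted p = 0.00775) and SUS2 i31 at -4.18 ± 0.99 (adjusted p = 0.0349).

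Between the stages, 4 of 12 tested isoforms passed in ‘1B’ (18.8% of all transcripts), all of them higher in ripe fruit. They were SUS2 i1 (log2 fold change 6.69 ± 1.28, adjusted p = 0.0131), SUS2 i31 (3.92 ± 0.95, adjusted p = 0.0294), SUS2 i16 (at least 32.1-fold) and SUS3 i6 (2.03 ± 0.34, adjusted p = 0.00866). In ‘RB1’ 2 of 21 passed (4.79%), SUS4 i2 higher in ripe fruit at 1.85 ± 0.14 (adjusted p = 0.00870) and SUS2 i25 at least 37.5-fold lower. ‘RB1’ ripe replicate 3 had 92 counts of SUS2 i25, and with it kept neither was called. The interaction called 4 of 30 isoforms (8.9%), of which SUS2 i1 was at 11.73 ± 2.06 (adjusted p = 0.00606) and SUS4 i2 at -1.52 ± 0.19 (adjusted p = 8.04e-04). SUS2 i31 and i16 had adjusted p-values of 0.0298 and 0.0365. With ‘RB1’ ripe replicate 3 kept, 0 isoforms were called in the interaction. The size of the SUS2 i1 values rests on single libraries: without ‘1B’ unripe replicate 2 they were -10.91 between unripe fruits and 10.46 in ‘1B’, and without ‘RB1’ ripe replicate 1 the interaction was 17.79.

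Isoform shares of the weaker members rest on few counts. SUS2 i1 had 54.6%, 47.5% and 49.7% of the gene in ripe ‘1B’, and 54.9%, 50.7% and 54.4% in unripe ‘RB1’. In unripe ‘1B’, with 2 to 7 counts of SUS2, and in ripe ‘RB1’ replicate 2, with 8, the leading isoform changed from library to library. The 95% Wilson interval of a share was up to 65.8 percentage points wide for SUS2 and 22.5 for SUS5, against 5.24 for SUS3 and 1.09 for SUS4. These intervals cover counting error only. By counts, which are not corrected for length, SUS5 was led by 9 different isoforms over the 12 libraries, with 25.3% to 53.7% in the leading 1. Its gene sum lay between 2.28 and 2.88 CPM within ripe ‘1B’, for example. Other SUS5 isoforms with a group mean of at least 1 CPM were found in 1 to 3 libraries each. Isoform i25 had 106 counts in ‘RB1’ ripe replicate 1 alone, and i2 had 123 there and 29 and 4 in unripe ‘1B’ replicates 2 and 3. Isoform i12 had 27 counts in ‘1B’ unripe replicate 1 and 32 in ‘RB1’ ripe replicate 2, and i27 had 33 in ‘RB1’ ripe replicate 2 and 14 in ‘RB1’ unripe replicate 1. The most regular SUS5 isoform was i37, with counts in 11 libraries and an effective length of 0.189 times that of SUS4 i2. It held 24.5%, 30.7% and 38.7% of SUS5 in ripe ‘1B’, against 14.6% and 18.8% in ripe ‘RB1’ replicates 1 and 2 and 25.3% in ‘RB1’ ripe replicate 3, which is within the range of ripe ‘1B’. On the log2 TMM-scaled TPM the ripe difference of SUS5 was -0.49 with 0.1 added and -0.37 with 1 added, against -1.39 on counts. The part that isoform length has in that gap was not tested.

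Partner genes of sugar and starch metabolism were taken from the study's list and counted as gene sums. UTP-glucose-1-phosphate uridylyltransferase, which interconverts UDP-glucose and glucose-1-phosphate, had 174, 166 and 133 CPM in ripe ‘1B’, against 375 and 335 CPM in ripe ‘RB1’. Its log2 fold change was -1.17 ± 0.18 in ripe fruit (adjusted p = 9.91e-07) and 1.30 ± 0.10 between the stages of ‘RB1’ (adjusted p = 1.08e-10), both below the fold threshold. ‘RB1’ ripe replicate 3 had 194 CPM, and with it kept the adjusted p was 0.0426 in ripe fruit and 0.0853 between the stages. In both of these comparisons the fold changes have the same signs as those of SUS4 and SUS5. In unripe fruit the uridylyltransferase was at -0.35 (adjusted p = 5.55e-04), with SUS4 at -0.10 and SUS5 at -0.09. Between the stages of ‘1B’ it was at 0.43 ± 0.10 (adjusted p = 0.00186), against 0.02 for SUS4 and -0.10 for SUS5. The insoluble beta-fructofuranosidase, a cell wall invertase, was higher in ripe ‘1B’. It had 3401, 3487 and 4080.0 CPM in ripe ‘1B’, against 1053 and 899.97 CPM in ripe ‘RB1’, a log2 fold change of 1.91 ± 0.25 (adjusted p = 5.95e-08), and ripe minus unripe fruit of ‘RB1’ was at -2.34 ± 0.15 (adjusted p = 9.30e-13). ‘RB1’ ripe replicate 3 had 4861 CPM, above all ripe ‘1B’ libraries, and with it kept neither was called (0.67 in ripe fruit, adjusted p = 0.457, and -1.09 between the stages, adjusted p = 0.359). The vacuolar acid beta-fructofuranosidase, which cleaves stored sucrose, was lower in ripe ‘1B’. It had 0.660, 0.624 and 0.290 CPM in ripe ‘1B’, against 10.7 and 11.9 CPM in ripe ‘RB1’ (log2 fold change -4.39 ± 0.22, adjusted p = 2.97e-18). ‘RB1’ ripe replicate 3 had 8.45 CPM, also above ripe ‘1B’, and the value with it kept was -4.31 (adjusted p = 7.74e-04). The gene was lower in ripe than in unripe ‘1B’ by a log2 fold change of -6.48 ± 0.18 (adjusted p = 3.86e-13).

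Among the other genes of that list, the beta subunit of the pyrophosphate-dependent phosphofructokinase PFP had the signs of SUS2 in all 4 comparisons. It had 263, 258 and 304 CPM in ripe ‘1B’, against 128 and 107.3 CPM in ripe ‘RB1’. The ripe log2 fold change was 1.22 ± 0.18 (adjusted p = 8.10e-07), below the fold threshold. The study measured this gene by RT-qPCR as cpPFP and reports it as higher in ripe ‘RB1’, the opposite direction to this gene sum. In unripe fruit PFP subunit beta had 79.7, 82.4 and 72.7 CPM in ‘1B’, against 356, 367 and 366 CPM in ‘RB1’. Its interaction was 3.48 ± 0.17 on the log2 scale (adjusted p = 1.79e-17). ‘RB1’ ripe replicate 3 had 695 CPM, the highest of the 12 libraries, and with it kept the ripe value was -0.19 (adjusted p = 0.849) and the interaction 2.04 (adjusted p = 0.0458). Granule-bound starch synthase 1, which makes amylose, was lower in ripe ‘1B’ (-2.69 ± 0.17, adjusted p = 8.92e-16) and higher in unripe ‘1B’ (3.16 ± 0.11, adjusted p = 1.25e-15) than in ‘RB1’. ‘RB1’ ripe replicate 3 had 1.63 CPM of it, below the 5.23 to 7.43 CPM of ripe ‘1B’, and with it kept the ripe value of -2.15 was not called (adjusted p = 0.120). Trehalose-phosphate synthase 1-like, which uses UDP-glucose, was higher in ripe than in unripe fruit of both varieties. The differences were 4.38 ± 0.19 in ‘1B’ (adjusted p = 3.81e-11) and 2.26 ± 0.37 in ‘RB1’ (adjusted p = 1.46e-05). In ‘RB1’ it was not called with ‘RB1’ ripe replicate 3 kept (1.79, adjusted p = 0.273). These values rest on few counts: 12, 12 and 8 in unripe ‘1B’, 7, 25 and 10 in unripe ‘RB1’ and 65 and 28 in ripe ‘RB1’ replicates 1 and 2. The other genes of this set, 6-phosphofructokinase 6-like and the large subunit of glucose-1-phosphate adenylyltransferase, were both higher in ripe ‘1B’ than in ripe ‘RB1’, at 1.99 ± 0.18 (adjusted p = 3.02e-11) and 1.68 ± 0.17 (adjusted p = 2.92e-10). With ‘RB1’ ripe replicate 3 kept they were at 1.498 (adjusted p = 0.0214, just below the fold threshold) and 1.97 (adjusted p = 0.00531). Starch synthase 4 was called in no comparison.

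Over the 22 genes of starch and sucrose metabolism on the study's list other than the 4 members, all of them tested, 4 were higher and 6 lower in ripe ‘1B’ than in ripe ‘RB1’, so that 10 of 22 were called, against the 29.5% of all genes, and with ‘RB1’ ripe replicate 3 kept 3 were higher and 4 lower. Their median log2 fold change was -0.33, beside 0.31 over all genes. In unripe fruit 2 were higher and 3 lower in ‘1B’, which is 5 of 22 against the 15.1% of all genes. Between ripe and unripe fruit, 5 were higher and 5 lower in ‘1B’, and 6 were higher and 3 lower in ‘RB1’, against the 25.8% and 19.3% of all genes. With library size only, the counts in ‘1B’ were 10 higher and 2 lower, where the median of the 22 was 1.33, beside 1.28 over all genes, and 92.1% of all called genes were higher. Among all genes, 13680 were called in that setting within ‘1B’, against 7492 under TMM. With ‘RB1’ ripe replicate 3 kept, the counts in ‘RB1’ were 0 higher and 1 lower. This list too was drawn up by the study from the ripe samples.

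Across the 12 libraries, the log2 CPM of SUS4 and SUS5 correlated at r = 0.966, while the other 5 pairs of members lay between -0.35 and 0.19. That coefficient rests largely on ripe ‘RB1’ replicates 1 and 2, with 180.0 and 154 CPM of SUS4 and 6.42 and 6.83 CPM of SUS5. All other libraries lay between 39.8 and 52.9 CPM of SUS4 and between 2.28 and 3.03 CPM of SUS5. Whether SUS4 and SUS5 follow each other among those libraries was not tested. Of 73 gene sums on the study's list, those most like SUS2 were PFP subunit beta (r = 0.986), plastidial pyruvate kinase 2 (0.974) and the biotin carboxyl carrier subunit of a plastidial acetyl-CoA carboxylase (0.971). The ones most like SUS3 were a probable trehalose-phosphate phosphatase F (0.894), a starch branching enzyme (0.862) and an aldo-keto reductase (0.861). For SUS4 they were glycolipid transfer protein 3 (0.926), UTP-glucose-1-phosphate uridylyltransferase (0.908) and pyruvate kinase isozyme G (0.862). The same 3 genes were nearest to SUS5, at 0.878, 0.903 and 0.869. The 12 libraries fall into 4 groups and share their scaling, so these coefficients are a description over few independent points.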

How the data were processed

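RNA-Seq of 12 fruits was used, 3 per variety and stage. The deposited expected counts are estimates per transcript, which the authors made with Salmon on 1 Trinity assembly of both varieties, without a genome, after read trimming (Trimmomatic 0.40 and FastQC 0.11.9 in the submitters' processing notes). The second deposited table is a normalised signal: TPM from the same run, scaled across libraries with TMM factors by the authors. No column of another sample was present.

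Expected counts were summed per Trinity gene, or kept per isoform, and rounded. A gene is the identifier without its isoform suffix. The quasi-likelihood test of edgeR 4.0.16, run in R 4.3.3 after filterByExpr and TMM scaling, was applied to the groups of each comparison alone, with Benjamini-Hochberg adjustment over the whole set of genes or transcripts tested. Calls used the thresholds of the study's methods, 0.05 for the adjusted p and 1.5 for the size of the log2 fold change. Isoform usage was tested with diffSpliceDGE, called at an adjusted p under 0.05. ‘RB1’ ripe replicate 3 was left out, giving 5 libraries in the ripe and the ‘RB1’ comparison and 11 in the interaction. The study does not number the ripe ‘RB1’ sample it calls an outlier, and replicate 3 was taken for it from the correlations between libraries. CPM are divided by TMM-scaled library sizes over all 12 libraries, and 3 counts were 0.0340 to 0.233 CPM. Standard errors are the log2 fold change over the root of the F statistic. Shares have 95% Wilson intervals. Correlations used log2 of CPM plus 0.5.

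All 4 members are named in every comparison, and every isoform with a group mean of at least 1 CPM, with 9 partner genes and, per member, the 3 most alike gene sums of the study's list of 118 transcripts. Other isoforms are named where they were called, chosen after their values were seen. Members and lists were chosen with earlier results of these data known. RefSeq (ASM5485532v1) gave symbols only. The steps were tested on simulated data.

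Alternatives were 1 fit shared by all groups, DESeq2 1.42.0, RLE size factors, library size only, centring on the median log2 fold change, limma 3.58.1 on log2 TMM-scaled TPM plus 1 or 0.1, no filter on low counts, a filter of 1 CPM in 2 or more libraries, no fold threshold, a replicate block, ‘RB1’ ripe replicate 3 kept, each library left out in turn and, added after seeing the data, TMM factors from gene sums of at least 20 CPM and the SUS4 to SUS3 ratio from TPM or with ‘RB1’ ripe replicate 3 kept.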

Additional observations from a re-analysis of the deposited data

Results flagged for a closer look

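The interaction of variety and stage, which tests whether the varieties differed in how a member changed with ripening, met an adjusted p of 0.05 for the 4 members with ‘RB1’ ripe replicate 3 left out. The adjusted p was 4.50e-20 for SUS2, 9.13e-11 for SUS4, 8.49e-06 for SUS5 and 0.0455 for SUS3, the last of these past 0.05 by little. With that library kept it was 0.00469 for SUS2, 0.0535 for SUS4, 0.0608 for SUS5 and 0.978 for SUS3, and for SUS3 it was also 0.156 with RLE size factors and 0.136 with DESeq2. The same test met the threshold for 4 isoforms, SUS2 i1 (adjusted p = 0.00606), SUS2 i31 (0.0298), SUS2 i16 (0.0365) and SUS4 i2 (8.04e-04), and for none of them with that library kept (0.122 to 0.2497).

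‘RB1’ ripe replicate 3, which the main comparisons do not use, had 17.1 CPM of SUS2 and 126 CPM of SUS3, above every other library. Its SUS4 to SUS3 ratio of 0.328 was below every other library, while its SUS3 isoforms i2 and i8 are those found in ‘RB1’ alone.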

How the results depend on the processing

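Of 380 log2 fold changes of gene sums under the alternatives, 337 kept their direction and their call, 14 lost the call, 11 gained it and 18 changed sign. The gains include those made by dropping the fold threshold, where the fold changes themselves stayed the same. The counts of members called, given below, depended on the settings. Apart from the setting without the fold threshold, they have no share of all genes beside them. In ripe fruit (2 called) they were 1 with limma on log2 TPM plus 0.1, 0 with limma plus 1, 4 without the fold threshold, 0 with ‘RB1’ ripe replicate 3 kept, 1 with TMM from gene sums of at least 20 CPM and 3 when centred on the median, SUS5 being the third. In unripe fruit (1 called) it was 2 without the fold threshold, and in ‘RB1’ (2 called) 4 without it and 0 with replicate 3 kept. In ‘1B’ (1 called) it was 2 with library size only and without the fold threshold, and 0 with limma plus 1. For the interaction (2 called) it was 4 without the fold threshold and 1 with each of at least 1 CPM in at least 2 libraries, library size only, limma plus 0.1 or plus 1, replicate 3 kept and TMM from at least 20 CPM, and 3 when centred, again with SUS5. The causes were not tested. Leaving out any 1 library changed none of these gene sum counts.

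Isoform calls were less stable, and their counts under the alternatives have no share of all transcripts beside them. In ripe fruit (8) they were 5 in a fit shared by all 4 groups, 0 with limma plus 1 and 5 with replicate 3 kept. In unripe fruit (7) they were 4 with at least 1 CPM in at least 2 libraries and 1 with limma plus 1. In ‘RB1’ (2) they were 1 in the shared fit, 4 with DESeq2, 1 with limma plus 1, 1 without the low-count filter and 0 with replicate 3 kept. In ‘1B’ (4) they were 0 with limma plus 1. For the interaction (4) they were 7 with limma plus 0.1, 1 with limma plus 1, 2 without the filter and 0 with replicate 3 kept. With 1 library left out they ran from 0 to 7 in ripe fruit, 4 to 7 in unripe fruit, 0 to 2 in ‘RB1’, 2 to 5 in ‘1B’ and 2 to 4 in the interaction. The 0 in ripe fruit came without ‘1B’ ripe replicate 1, against 4 without ‘RB1’ ripe replicate 1 and 5 without ‘RB1’ ripe replicate 2 or ‘1B’ ripe replicate 3. In ‘RB1’ the 0 came without unripe replicate 1 or 2, and 1 without unripe replicate 3. The lowest counts elsewhere came without ‘1B’ unripe replicate 1 in unripe fruit, ‘1B’ ripe replicate 3 in ‘1B’, and, in the interaction, ‘1B’ ripe replicates 1 or 2, ‘RB1’ ripe replicates 1 or 2 or ‘RB1’ unripe replicates 2 or 3. Isoform usage in ripe fruit called 1 to 2 members, SUS5 being the other one without ‘1B’ ripe replicate 3.

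Signs turned mainly where a difference was near 0. SUS2 in ripe fruit was at -0.22, and SUS2 i1 at -0.38, with replicate 3 kept. SUS3 in unripe fruit was at -0.21 with library size only, and its interaction at -0.10 centred on the median and -0.0161 with replicate 3 kept. SUS4 in unripe fruit ranged from -0.13 to 0.0404, and SUS4 i2 from -0.12 to 0.0499, with 1 library left out. SUS4 in ‘1B’ was at -0.19 centred, -0.0604 with DESeq2 and with RLE and -0.0559 to 0.0905 with 1 library left out, and SUS4 i2 there at -0.10 centred. SUS5 in ‘1B’ was at 0.13 with at least 1 CPM in at least 2 libraries, 0.97 with library size only, 0.94 and 0.59 with limma plus 0.1 and plus 1, 0.0104 without the filter and 0.47 with TMM from at least 20 CPM. The interaction of SUS3 i12 was at -0.36 centred and -0.0212 with replicate 3 kept.

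Replicate numbers name separate fruits. Over 15 pairs of same-numbered libraries from different groups, deviations had a median r of 0.00515 (-0.111 to 0.0562). The numbers were thus not taken to pair the samples. With the replicate block, the counts of gene sums called were 2 in ripe fruit, 1 in unripe fruit, 2 in ‘RB1’, 1 in ‘1B’ and 2 in the interaction, as without it, with SUS3 in the interaction at an adjusted p of 0.0620. Isoforms called with the block were 0 in each pairwise comparison and 2 in the interaction. SUS3 usage had adjusted p-values of 0.0445 in ripe and 6.51e-04 in unripe fruit.

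Depth limits SUS2 in unripe ‘1B’ and ripe ‘RB1’ replicate 2 and every SUS5 isoform. For isoforms there, a missing call is no evidence of equal levels.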
